A study of Mus musculus with 8 samples.

Results

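The mitochondrial ribosomal proteins were taken as all genes whose symbol is Mrpl or Mrps followed by a number and at most 1 further letter. The rule found 77 genes among the 48440 entries of the deposited count table, 48 named for the large subunit and 29 for the small subunit, and no measured value entered the choice. RNA had been sequenced from purified heart muscle cells (cardiomyocytes) of C57BL6/J mouse pups at postnatal day 2. Each of 4 litters gave the heart of 1 male and the heart of 1 female, so there were 8 libraries, 4 of each sex and 2 of each litter. The animals carried no labelled mutation and received no labelled treatment, and the series compares the sexes. Litter is the other factor that the labels give.

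Mitochondria keep a small genome whose messenger RNAs encode core subunits of the respiratory chain, and these are translated inside the organelle by a ribosome of its own. The 2 ribosomal RNAs of that particle come from mitochondrial DNA, while all of its proteins are encoded in the nucleus, made in the cytosol and imported. Some of these proteins descend from bacterial ribosomal proteins and others are found only in mitochondrial ribosomes. Heart muscle is rich in mitochondria and switches towards oxidative metabolism after birth, and inherited defects of MRPL3, MRPL44 or MRPS22 can include cardiomyopathy.

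Libraries held between 14226342 and 24910243 counts, with the female of litter 3 the shallowest, and genes encoded by mitochondrial DNA took 13.4% to 15.2% of the counts except in the male of litter 4, where they took 18.5%. The 10 cardiomyocyte markers (such as Myh6 and Tnnt2) were detected in every library and summed to between 65387 and 80666 CPM (a gene's counts divided by the library's total and multiplied by 1000000), lowest in both libraries of litter 3 and in the male of litter 4. Single cardiomyocyte markers did not all follow that sum. In litter 3, 4 of the 10 were called lower and 1 higher, and in litter 4, 3 were called higher and 2 lower. The 8 fibroblast markers summed to 33.1 and 53.0 CPM in litter 3 and to between 105 and 246 CPM in the other 6 libraries. Of these 8, 6 were called lower in litter 3, while 3 were called higher in litter 1, 6 in litter 2 and 6 in litter 4. The 8 endothelial markers summed to 88.4 and 154 CPM in litter 2 and to between 17.1 and 63.5 CPM in the others, with 8 of 8 called higher in litter 2. The 6 mural markers summed to 847 and 868 CPM in litter 3 and to between 1277 and 1388 in the others. The 5 epicardial markers summed to 23.4 and 23.5 CPM in litter 3 and to between 12.6 and 17.8 in the others. Single epicardial markers did not all follow that sum: of the 4 tested, 1 was called higher and 1 lower in litter 3, and 3 had a value below 0. The 7 erythroid markers summed to 544 CPM in the male of litter 3 and to between 100.2 and 249.5 CPM in the other 7 libraries, with 2 of the 6 tested called higher in litter 3. The 7 macrophage and immune markers summed to at most 8.65 CPM, with 1 of them at 0 in every library and 5 of them at 0 in at least 1. The part of these marker levels in the results on litters was not tested, and in such bulk samples fewer cells of a type and less RNA per cell cannot be told apart.

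The stretches in front of the genes are shown first, since the proteins of this particle are coded at scattered sites in the genome. The 77 genes lay on 17 chromosomes, none on X or Y, with at most 10 on any chromosome. RefSeq promoters on GRCm38.p6, running from 250 bases before to 50 bases after the start, were matched for 68 of the 77. They were searched on both strands for the core letters bound by ETS factors (CCGGAAG), by NRF1, a regulator of nuclear genes for mitochondrial proteins (GCATGCGC), and by YY1 (AAGATGGC). ETS letters stood in 24 of 68 promoters (35.3%), against 9.12% of all 27025 promoters in the table and 18.3% of the 9866 promoters of genes tested here. YY1 letters stood in 12 of 68 (17.6%), against 2.88% and 4.82%, and NRF1 letters in 8 of 68 (11.8%), against 2.8% and 5.56%. At least 1 of these 3 motifs was found in 36 of 68 promoters (52.9%), against 13.8% of all promoters and 26.2% of those of tested genes. The TATA letters TATAAA were in 4 of 68 (5.88%), against 14.2% and 6.83%. The NRF1 letters are nearly their own reverse complement, so that 1 stretch can match on both strands, and no other pair of these motifs shares its letters. A match is a description of the sequence and not evidence of binding.

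The 150 bases before the start are printed for 6 members, 5′ to 3′ on the strand of the gene, with motif letters in capitals. Mrpl51, Mrps22, Mrpl34 and Mrps18a have the ETS letters there and changed between litters, Mrpl39 has the NRF1 letters, and Mrpl12, the member with the highest level per length of exon, has none of the 4 motifs. Mrpl51 lies at chr6:125192050-125192199 on the plus strand, Mrps22 at chr9:98601680-98601829 on the minus strand, Mrpl34 at chr8:71464776-71464925 on the plus strand, Mrps18a at chr17:46110854-46111003 on the plus strand, Mrpl39 at chr16:84735245-84735394 on the minus strand and Mrpl12 at chr11:120484487-120484636 on the plus strand.
Mrpl51: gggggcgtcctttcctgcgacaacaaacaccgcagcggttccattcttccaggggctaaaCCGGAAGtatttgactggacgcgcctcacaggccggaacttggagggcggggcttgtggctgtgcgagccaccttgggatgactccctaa
Mrps22: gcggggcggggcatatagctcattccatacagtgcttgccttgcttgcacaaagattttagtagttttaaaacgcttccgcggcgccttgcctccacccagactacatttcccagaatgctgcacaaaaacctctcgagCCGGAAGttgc
Mrpl34: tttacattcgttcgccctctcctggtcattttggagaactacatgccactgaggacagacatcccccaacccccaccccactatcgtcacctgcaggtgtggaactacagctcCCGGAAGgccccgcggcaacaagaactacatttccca
Mrps18a: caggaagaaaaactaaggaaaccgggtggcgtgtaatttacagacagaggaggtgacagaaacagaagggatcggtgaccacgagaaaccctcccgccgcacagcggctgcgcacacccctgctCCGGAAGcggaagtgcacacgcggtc
Mrpl39: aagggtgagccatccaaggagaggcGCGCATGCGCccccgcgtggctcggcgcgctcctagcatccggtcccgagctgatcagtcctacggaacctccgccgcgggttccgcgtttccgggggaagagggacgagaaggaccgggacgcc
Mrpl12: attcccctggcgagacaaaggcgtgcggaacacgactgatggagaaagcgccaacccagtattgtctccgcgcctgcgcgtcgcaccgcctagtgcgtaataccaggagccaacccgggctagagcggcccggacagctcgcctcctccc
The ETS letters differ in their distance from the start in these 4 stretches, closest in Mrps22. Among tested members with a promoter, ETS letters were in 5 of 21 that changed between litters and in 18 of 46 that did not pass that test, and NRF1 letters in 0 of 21 and 8 of 46.

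Of the 77 genes, 76 passed the filter on low counts. Mrpl53, a large-subunit protein, was listed at 0 in all 8 libraries, and 88.0% of its exon bases lie inside another annotated gene on the same strand, Gm42688, which had 22 to 48 counts. The 76 others had between 113 and 5956 counts in each library. Their mean levels ran from 7.13 to 208 scaled CPM (with library totals scaled by edgeR's TMM factors), with a median of 48.4. Divided by the summed length of all annotated exons, Mrpl12 was highest at 134 ± 16.3 CPM per kb (SD, n = 8). Mrpl12 forms the stalk through which translation factors reach the ribosome. The next were Mrpl34 at 89.3 ± 10.6, Mrpl18 at 85.8 ± 11.2, Mrps23 at 80.7 ± 5.30, Mrpl54 at 76.4 ± 5.10 and Mrps21 at 65.6 ± 6.45 CPM per kb, whose neighbours in this order overlap within their SD. The lowest were Mrpl23 at 1.46 ± 0.172, Mrpl17 at 2.85 ± 0.145, Mrps25 at 4.04 ± 0.775, Mrps10 at 4.71 ± 0.305, Mrpl48 at 6.19 ± 0.738 and Mrpl33 at 6.60 ± 0.568 CPM per kb. The order depends on the length used. Per kb of the principal transcript, Mrpl33 stood at 101 CPM per kb and Mrpl42 was highest. Of the 6 highest, Mrpl12 and Mrpl54 stayed among the 6 highest by the longest and by the principal transcript too, and of the 6 lowest, Mrpl17 and Mrps25 stayed among the 6 lowest.

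The members varied little between hearts. The coefficient of variation over the 8 libraries had a median of 8.52% over the members, against 13.3% over all 13771 genes tested and 10.6% over the 8635 genes within the members' range of levels. It was lowest for Mrps15, a small-subunit protein with a bacterial homolog, at 4.13%, and highest for Mrps22 at 20.0%. The highest library exceeded the lowest by 1.13 to 1.86 times, with a median of 1.28.

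In edgeR's quasi-likelihood test of any difference between the 4 litters, 24 of 76 members passed an adjusted p of 0.05 (31.6%), which is close to the 32.1% of all genes tested that did, so the share of members called is near the background. These were 6 of 26 small-subunit and 18 of 49 large-subunit members, and 15 of 46 members with a bacterial homolog and 9 of 29 found only in mitochondria. The range between the highest and the lowest litter, on the log2 scale, was 0.71 for Mrps25, 0.64 for Mrps22, 0.53 for Mrpl19, 0.53 for Mrps14 and 0.48 for Mrpl46. Without litter 3 these 5 ranges were 0.24, 0.26, 0.22, 0.28 and 0.27 and none of the 5 passed, and for Mrpl19 the range was 0.35 without litter 1. Without litter 3, 7 members were called (9.21%, against 13.7% of all genes in the same fit), and without litter 4, 15 were (19.7%, against 26.6%). Where libraries were scaled by their totals only, 14 were called (18.4%, against 34.3%), and in these 3 fits the share of members was below that of all genes.

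**Figure D1:**
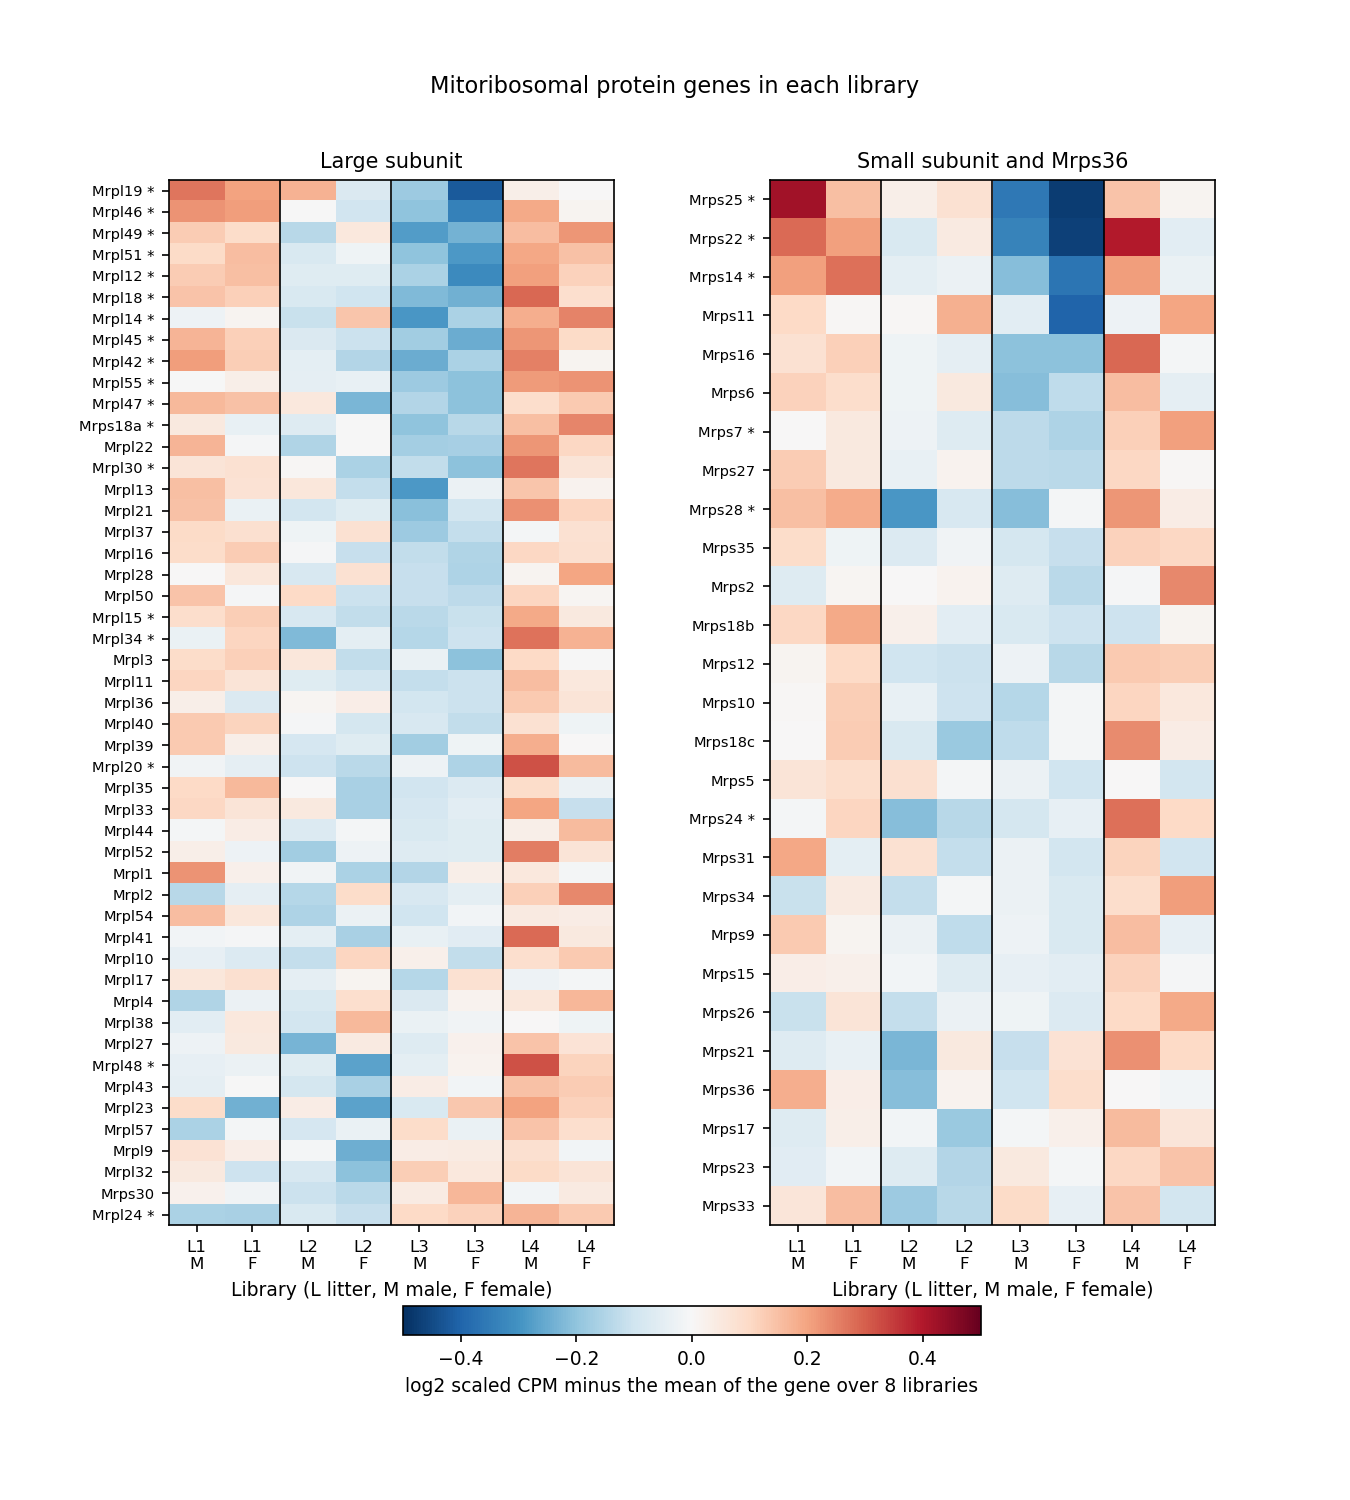
Each square is the log2 scaled CPM of a member in 1 of the 8 libraries minus the mean of that member over the 8 libraries, in columns by litter (L) and sex (M male, F female), with members ordered by their litter 3 fold change and an asterisk at the 24 that passed the litter test. Litter 3 is blue for most members and litter 4 red for most, while Mrpl24, at the bottom of the left panel, is low in litter 1 and high in litters 3 and 4.

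Mrps25, a small-subunit protein without a bacterial counterpart, differed most. It stood at 35.0 and 29.0 scaled CPM in the male and the female of litter 1, at 26.7 and 27.5 in litter 2, at 20.4 and 18.8 in litter 3 and at 28.9 and 26.4 in litter 4. Both libraries of litter 3 lay below the other 6 (adjusted p = 0.00194 for any litter difference, edgeR). Nr2c2 on the opposite strand overlaps 69.8% of the exon bases of Mrps25, and whether the counting used strand is not stated, so reads of these genes may not have been separated. Mrps22, another small-subunit protein found only in mitochondria, stood at 37.3 and 35.4 in litter 1, 29.2 and 31.7 in litter 2, 24.3 and 22.2 in litter 3 and 40.4 and 29.6 in litter 4 (adjusted p = 0.00714). Litter 3 was again below the rest, and the 2 littermates of litter 4 were further apart than those of the other litters.

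Among large-subunit members, Mrpl12 stood at 224 and 227 scaled CPM in the male and the female of litter 1, at 196 and 196 in litter 2, at 183 and 164 in litter 3 and at 236 and 222 in litter 4 (adjusted p = 0.00442). Mrpl18, a protein of the central protuberance, stood at 131 and 129, 113 and 111, 102 and 101, and 145 and 126 scaled CPM in litters 1 to 4 (adjusted p = 0.00457). Mrpl51 stood at 122 and 127, 108 and 113, 99.3 and 93.5, and 131 and 127 scaled CPM in the same order (adjusted p = 0.00468). In each of these 3, litters 1 and 4 were above litter 2 and litter 2 above litter 3, with no overlap between these levels. Mrpl45, which helps to hold the ribosome at the inner membrane, had the same order, at 74.6 and 72.1, 63.1 and 61.5, 58.7 and 55.9, and 77.4 and 70.9 scaled CPM (adjusted p = 0.00596). Mrpl19 stood at 43.9 and 41.9, 41.1 and 34.6, 32.1 and 27.2, and 37.1 and 36.4 scaled CPM (adjusted p = 0.00585), with litter 1 highest and litter 3 lowest. The opposite-strand gene Gcfc2 overlaps 36.0% of its exon bases.

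Mrpl24, whose bacterial counterpart sits near the exit of the peptide tunnel, took another order. It stood at 62.2 and 62.1 scaled CPM in litter 1, 65.8 and 64.0 in litter 2, 74.3 and 75.3 in litter 3 and 78.1 and 76.02 in litter 4 (adjusted p = 0.0142). The libraries of litters 3 and 4 lay above all of litters 1 and 2. Rrnad1, on the opposite strand, overlaps 26.3% of its exon bases.

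**Figure D2:**
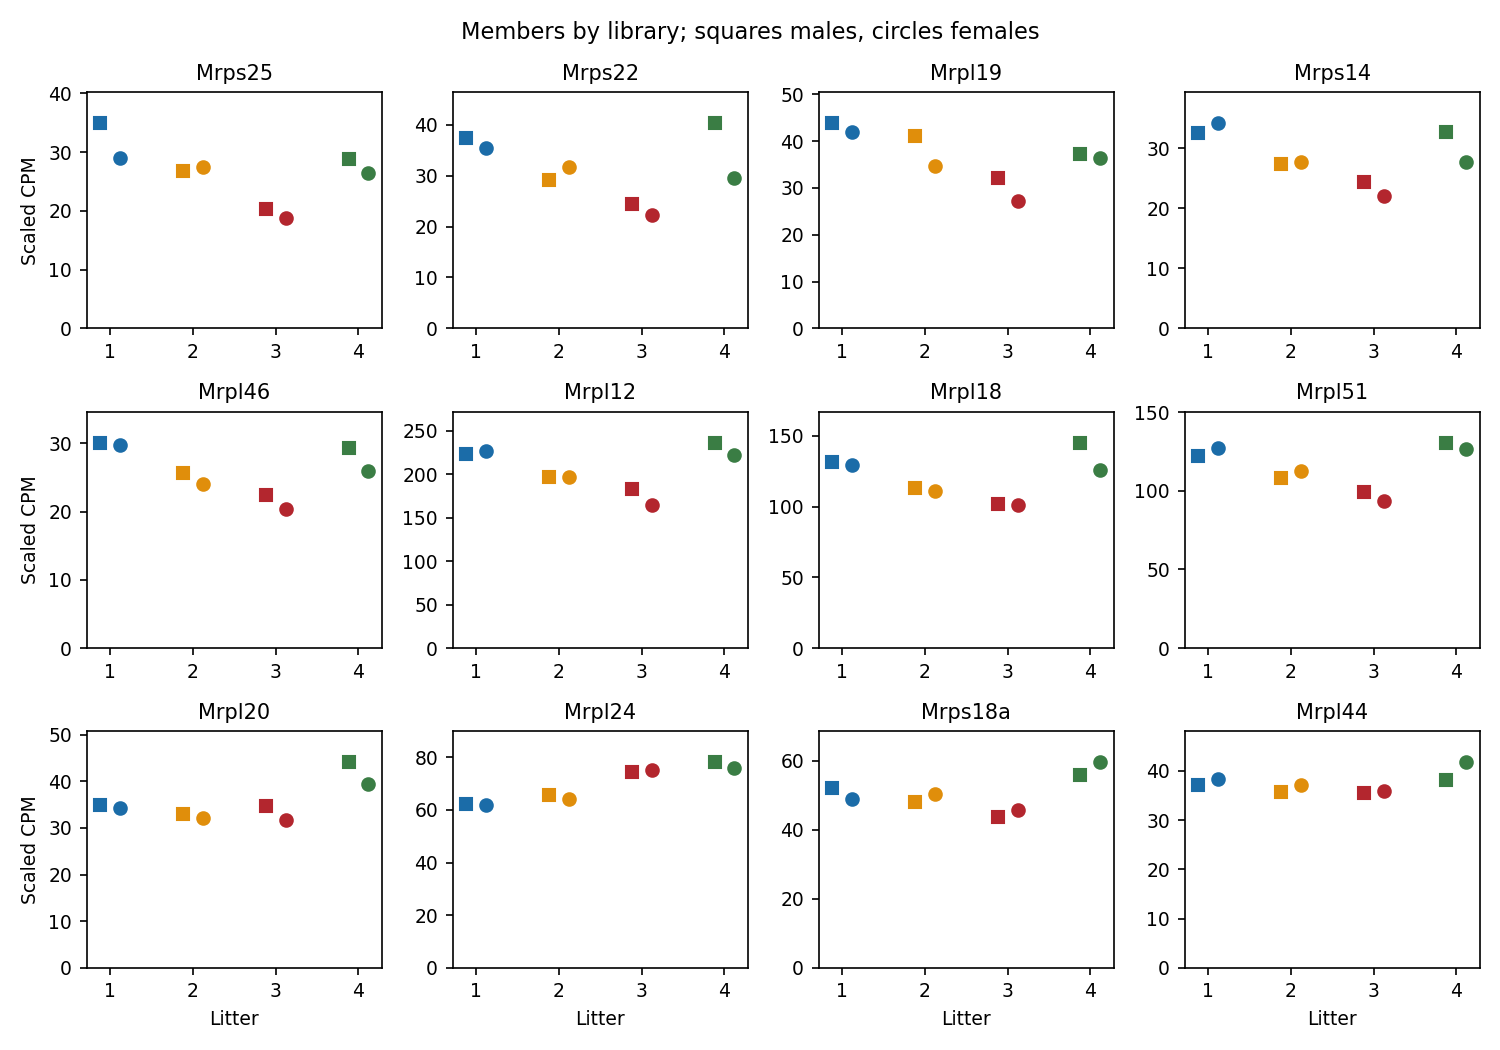
Scaled CPM of 12 members in each library by litter, with squares for males and circles for females and every axis starting at 0. Litter 3 is lowest for Mrps25, Mrps22, Mrpl19, Mrps14, Mrpl46, Mrpl12, Mrpl18, Mrpl51 and Mrps18a, litter 4 is highest for Mrpl20, and Mrpl44 is nearly level.

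A further contrast set each litter against the average of the remaining 3. These 4 comparisons share libraries, so a low litter also raises the values of the others, and they are given side by side for what each shows. In litter 3, 20 of 76 members fell (26.3%, against 14.8% of all genes tested) and 0 rose (against 13.6%). The median over members was -0.12 on the log2 scale, against 0.000127 over all genes, and 66 of 76 members had a value below 0. Both libraries of litter 3 lay below the other 6 for 28 members, against 16.4% of all genes, and above them for 0, against 15.1%. Mrps25 fell by 0.56 (SE 0.08, adjusted p = 0.000597), Mrps22 by 0.54 (SE 0.10, adjusted p = 0.0025), Mrpl19 by 0.40 (SE 0.08, adjusted p = 0.00251) and Mrps14, at the head of the small subunit, by 0.38 (SE 0.08, adjusted p = 0.00602). The members that fell were 5 of 26 in the small and 15 of 49 in the large subunit.

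The excess over all genes depended on the libraries used. Without the female of litter 3, 5 members fell (6.58%, against 6.96% of all genes in that fit), and without litter 4, 13 fell (17.1%, against 15.5%), both near the background. Without the male of litter 3, 9 fell (11.8%, against 8.02%), and without litter 1, 13 fell (17.1%, against 11.4%). With library size alone 14 fell (18.4%, against 12.3%) and 1 rose, with a median of -0.08 over members and 0.04 over all genes, and the split over all genes moved from 1871 higher and 2032 lower to 2419 higher and 1698 lower. The members that fell had longer transcripts than the other members, with medians of 2501.5 and 1540.5 bases, and with an offset for GC content and length 24 fell (31.6%, against 15.4%).

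In litter 4, 16 of 76 members rose (21.1%, against 4.71% of all genes tested) and 0 fell (against 5.8%). The median over members was 0.14 against 0.0129 over all genes, and 71 of 76 members had a value above 0. Both libraries of litter 4 lay above the other 6 for 22 members, against 8.23% of all genes, and below them for 0, against 8.8%. Mrpl20, an RNA-binding protein of the large subunit, rose by 0.32 (SE 0.07, adjusted p = 0.014). It stood at 34.9 and 34.2 scaled CPM in litter 1, 32.9 and 32.2 in litter 2, 34.7 and 31.7 in litter 3 and 44.1 and 39.4 in litter 4, with both libraries of litter 4 above the other 6. Mrpl34 rose by 0.30 (SE 0.07, adjusted p = 0.0212), Mrpl55 by 0.29 (SE 0.06, adjusted p = 0.0138) and Mrpl48 by 0.29 (SE 0.07, adjusted p = 0.0304). Without the male of litter 4 none of these 4 passed, and Mrpl34 then stood at 0.19. With the offset for GC content and length Mrpl34 stood at 0.15 and Mrpl55 at 0.16, and neither passed. The members that rose were 2 of 26 in the small and 14 of 49 in the large subunit, and the difference between the subunits was not tested.

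The count in litter 4 depended on single libraries and on the scaling. Leaving out the male of litter 4 gave 0 members (against 0.671% of all genes in that fit) and leaving out its female 4 (5.26%, against 1.28%). Leaving out the male of litter 1 gave 3 (3.95%, against 1.92%) and the female of litter 1 4 (5.26%, against 2.13%). Leaving out the male of litter 2 gave 6 (7.89%, against 3.33%), the male of litter 3 9 (11.8%, against 3.76%) and the female of litter 3 7 (9.21%, against 3.6%). The count was 7 without litter 3 (9.21%, against 5.99%), 9 without litter 2 (11.8%, against 5.15%) and 7 with DESeq2 (9.21%, against 2.75%). With library size alone it was 2 (2.63%, against 1.9%). That scaling moved all genes alike: the median over members became 0.07 and that over all genes -0.06, and the split over all genes moved from 648 higher and 799 lower to 262 higher and 1501 lower. The members that rose had shorter transcripts than the others, with medians of 1327.5 and 2305.5 bases, and 3 rose with an offset for GC content and length (3.95%, against 2.29%), with a median of 0.10 over members and 0.01 over all genes. Values above 0 were then found for 61 of 76 members, and for 55 of 76 with library size alone. The male of litter 4 also had the highest share of counts from mitochondrial DNA, 18.5%, and the part of that in these calls was not tested.

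In litter 1, 6 of 76 members rose (against 7.86% of all genes tested) and 1 fell (against 5.41%), so the share that rose was that of all genes. The median over members was 0.09, against -0.00164 over all genes. It was 0.055 without the female of litter 1, 0.046 without litter 3 and 0.14 without litter 4, and 56 of 76 members had a value above 0. Both libraries lay above the other 6 for 9 members, against 8.89% of all genes, and below them for 1, against 8.67%. Mrps25 rose by 0.38 (SE 0.08, adjusted p = 0.00712), Mrps22 by 0.32 (SE 0.09, adjusted p = 0.0405), Mrps14 by 0.32 (SE 0.08, adjusted p = 0.0201) and Mrpl19 by 0.31 (SE 0.07, adjusted p = 0.0138), while Mrpl24 fell by 0.21 (SE 0.06, adjusted p = 0.0355). Without litter 3 the first 4 stood at 0.22, 0.16, 0.22 and 0.20, and none of them passed. Without the male of litter 1 none of the 4 passed either. Without the male of litter 1, 0 members rose (against 1.62% of all genes in that fit), without litter 3 0 (against 4.13%) and without the female of litter 1 1 (1.32%, against 1.98%). More members rose without the male of litter 4, where there were 10 (13.2%, against 8.26%), without litter 4, where there were 14 (18.4%, against 8.16%), and with the offset for GC content and length, where there were 11 (14.5%, against 7.76%). The estimate for Mrpl24 ran from -0.29 to -0.17 when libraries or litters were left out. It no longer passed the threshold with DESeq2, without a filter on low counts, without litter 3, without litter 4, and without the male or the female of litter 1 or of litter 3, the male of litter 2 or the male of litter 4.

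In litter 2, edgeR called 0 members higher (against 3.3% of all genes tested) and 0 lower (against 0.879%), and DESeq2 also called 0. An unadjusted p under 0.05 was found for 10 of 76 members, against 2466 of 13771 genes. The median over members was -0.08. It was -0.03 with the offset for GC content and length, -0.06 with library size alone (against 0.03 over all genes), -0.15 without litter 3 and -0.04 without litter 4. In the fit with all libraries 11 of 76 values were above 0, or 19 with library size alone and 28 with the offset for GC content and length. Both libraries lay below the other 6 for 6 members, against 3.6% of all genes, and above them for 0, against 4.79%. Without the female of litter 4, 2 members were lower (2.63%, against 1.42% of all genes in that fit).

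**Figure D3:**
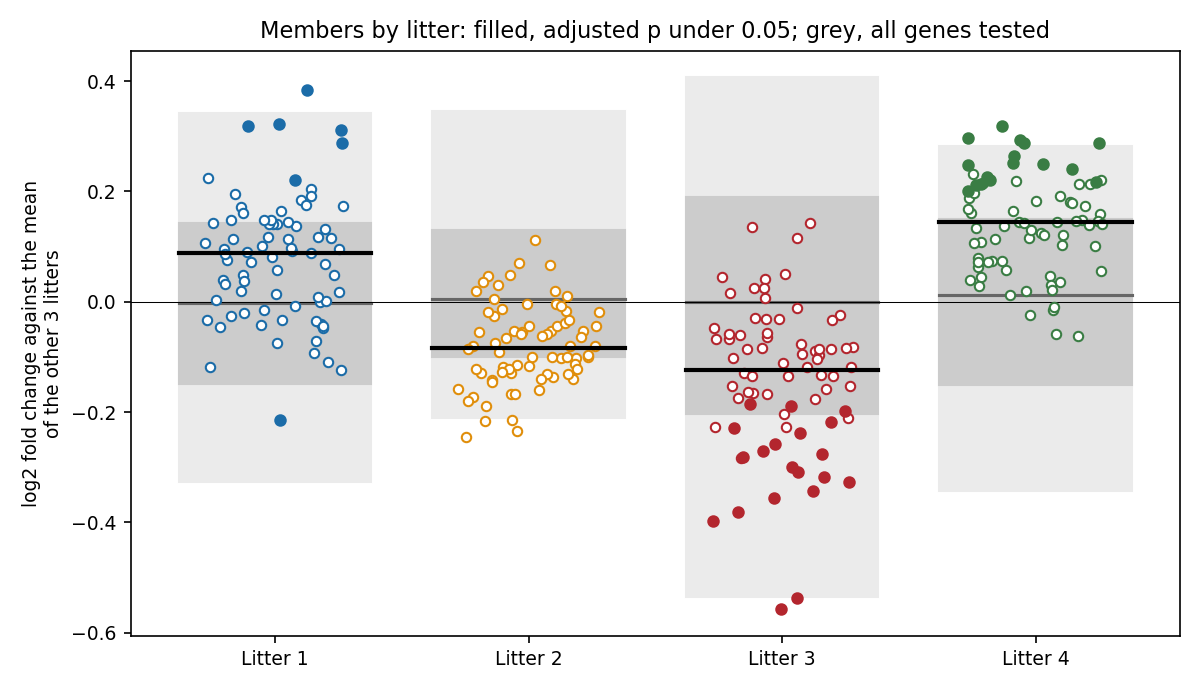
Log2 fold change of each of the 76 members in each litter against the mean of the other 3, filled where the adjusted p was under 0.05, with a black line at the median of the members. Grey boxes hold the middle of all genes tested (dark, quartiles; light, 10th to 90th percentile; grey line, median): the members' median is -0.12 in litter 3 and 0.14 in litter 4, and most members stay within the light boxes.

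Some members are of interest for their name or their disease. Mrps18a, Mrps18b and Mrps18c are paralogs, of which Mrps18c takes the place of the bacterial protein, Mrps18b sits elsewhere in the small subunit and Mrps18a in the large subunit. Mrps18a passed the litter test, at 52.1 and 49.0 scaled CPM in litter 1, 48.2 and 50.3 in litter 2, 43.8 and 45.7 in litter 3 and 55.9 and 59.6 in litter 4 (adjusted p = 0.0239). Its level was lowest in litter 3 and highest in litter 4, without overlap. Mrps18b at 14.02 to 17.2 scaled CPM (adjusted p = 0.302) and Mrps18c at 17.7 to 23.7 (adjusted p = 0.196) did not pass. Mrps18b shares 56.9% of its 100-base windows with other genes, among them Gm16279. Mrps30, a large-subunit protein despite its name, stood at 49.7 to 61.3 scaled CPM, and Mrps36, now assigned to the 2-oxoglutarate dehydrogenase complex, at 14.6 to 19.2. Neither passed the litter test (adjusted p = 0.178 and 0.489). Of the genes known from cardiomyopathy, Mrps22 is described with the litters. Mrpl3 stood at 93.1 to 117 scaled CPM and Mrpl44 at 35.5 to 41.8, with adjusted p = 0.126 and 0.353 for litter.

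Summed over the 77 members, the level was 4298 and 4283 CPM in the male and the female of litter 1, 3993 and 3977 in litter 2, 3897 and 3875 in litter 3 and 4330 and 4194 in litter 4. All 4 libraries of litters 1 and 4 lay above all 4 of litters 2 and 3, also with scaled totals. The means were 4290 ± 10.5 CPM in litter 1, 3985 ± 11.3 in litter 2, 3886 ± 14.9 in litter 3 and 4262 ± 96.1 in litter 4 (SD, n = 2). The small subunit summed to between 1156 and 1265 CPM and the large to between 2701 and 3049 CPM. By sex the sums were 4129 ± 217 CPM in males and 4082 ± 189 in females (SD, n = 4), a spread that holds the differences between litters. Within each of the 4 litters the male was above the female, also with scaled totals, and a sum over members is given without a test. For the small subunit alone the male was below the female in litter 1 (1255 and 1261 CPM) and litter 2 (1178 and 1180 CPM), and above her in litters 3 and 4.

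Other gene families of the mitochondrion and of translation did not all take the same order. The 36 nuclear genes of complex I, the first enzyme of the respiratory chain, had 21 lower and 0 higher in litter 3 (against 14.8% and 13.6% of all genes), with a median of -0.20. The number lower was 9 without the male of litter 3 (against 8.02% of all genes in that fit), 13 without its female (against 6.96%) and 12 without litter 1 (against 11.4%). The 76 cytosolic ribosomal protein genes had 15 higher and 0 lower there (against the same shares), with a median of 0.11. Their number higher was 0 without the female of litter 3, with a median of 0.05 (against 5.23% of all genes in that fit), 7 without the male of litter 1 (against 10.6%) and 9 without its female (against 10.7%). It was 3 without litter 1 (against 10.2%), 3 without litter 2, with a median of 0.04 (against 13.1%), 32 with library size alone (against 17.6%) and 57 without litter 4 (against 14.6%). The median of the mitoribosomal members in litter 3 was -0.12, and the differences between these 3 medians were not tested.

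The rise in litter 4 was found among the cytosolic ribosomal protein and complex I genes too. There 60 of the 76 cytosolic ribosomal protein genes were higher and 0 lower (against 4.71% and 5.8% of all genes), with a median of 0.26, and 13 of the 36 complex I genes were higher and 0 lower, with a median of 0.17. The mitoribosomal members had 16 of 76 higher and a median of 0.14, and the differences between the families were not tested. Without the male of litter 4, 1 cytosolic and 0 complex I genes were higher (against 0.671% of all genes in that fit), and without its female 38 and 5 (against 1.28%). Without the male of litter 1 there were 25 and 3 (against 1.92%), without the female of litter 1 36 and 4 (against 2.13%), without the male of litter 3 37 and 8 (against 3.76%) and without the male of litter 2 49 and 7 (against 3.33%). Without litter 1 there were 29 and 16 (against 3.26%), without litter 2 21 and 9 (against 5.15%) and without litter 3 69 and 7 (against 5.99%). The numbers were 20 and 1 with the offset for GC content and length (against 2.29%) and 28 and 4 with library size alone (against 1.9%).

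In litter 2, where no member was called, 35 cytosolic ribosomal protein genes were lower and 0 higher (against 0.879% and 3.3% of all genes), with a median of -0.25, and 1 complex I gene was lower. The cytosolic number was 1 without the female of litter 2 (against 0.143% of all genes in that fit), 3 without its male (against 0.289%), 12 with the offset for GC content and length (against 0.813%) and 61 without litter 1 (against 3.41%). Over the other fits it ran from 10 without the female of litter 1 (against 0.346%) to 63 without a filter on low counts (against 1.34%).

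**Figure D4:**
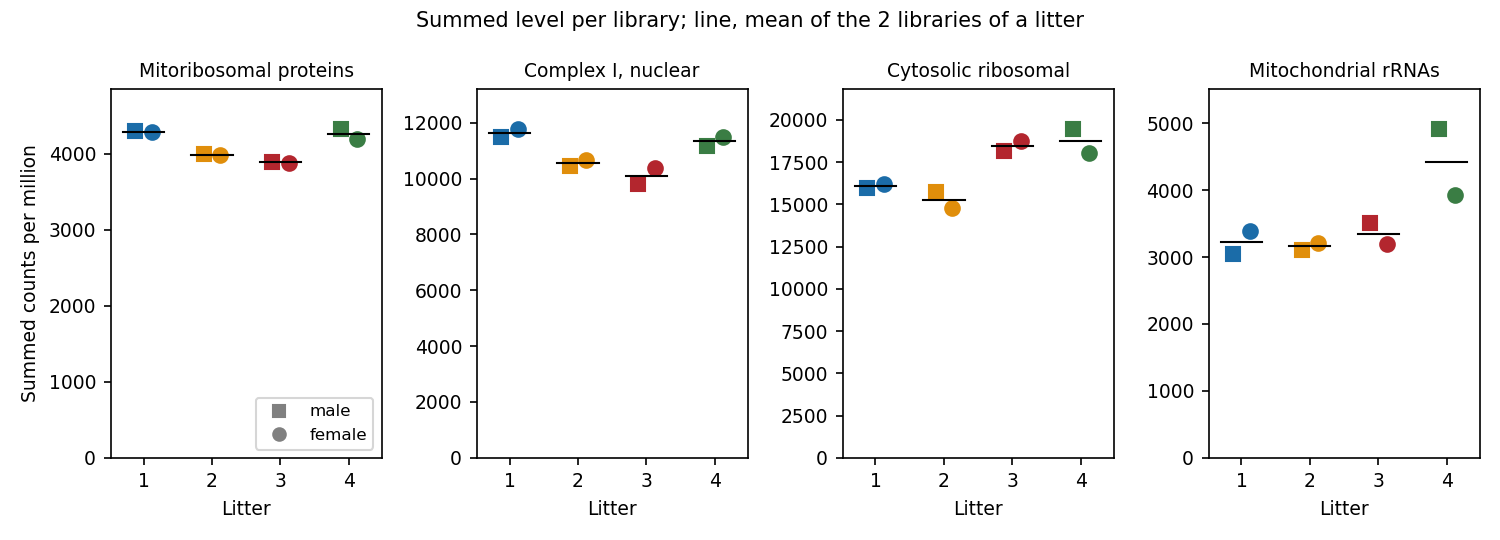
Summed CPM per library for the 77 mitoribosomal proteins, the 36 nuclear complex I genes, the 76 cytosolic ribosomal proteins and the 2 mitochondrial ribosomal RNAs, by litter, with squares for males, circles for females, a line at the mean of each litter and axes from 0. Mitoribosomal proteins and complex I are lowest in litter 3, cytosolic ribosomal proteins are lowest in litter 2, and the ribosomal RNAs are highest in litter 4.

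The RNA partners of these proteins are mt-Rnr1 and mt-Rnr2, the ribosomal RNAs of the small and the large subunit. The level of mt-Rnr1 was 818 and 971 scaled CPM in litter 1, 1031 and 1088 in litter 2, 966 and 938 in litter 3 and 1958 and 1613 in litter 4. Litter 4 stood above the other 6 libraries, by 0.89 on the log2 scale (SE 0.08, adjusted p = 0.000298). For mt-Rnr2 the litter 4 difference was 0.34 (SE 0.08, adjusted p = 0.0263), with overlap between litters. Its level was highest in the male of litter 4, while the female of litter 4 lay below the male of litter 3. How much ribosomal RNA a library keeps depends on its preparation, and that part was not tested.

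Of 6 proteins of the particle that carry other names, 3 passed the litter test (Chchd1, Aurkaip1 and Ptcd3). Chchd1 fell by 0.35 in litter 2 (SE 0.08, adjusted p = 0.0231), and Ptcd3 rose by 0.31 in litter 1 (SE 0.07, adjusted p = 0.0129). Of 22 assembly and rRNA modification genes, 1 passed, Rbfa, which acts on the small subunit. Of 15 translation factors, 8 passed, or 5 without the female of litter 3 (against 21.8% of all genes in that fit), 5 without litter 1 (against 22.7%) and 2 without litter 3 (against 13.7%). Lrpprc and Slirp, which together stabilise mitochondrial messenger RNAs, fell in litter 3 by 0.23 (SE 0.05, adjusted p = 0.00785) and 0.52 (SE 0.08, adjusted p = 0.000624), and both rose in litter 1, by 0.45 (SE 0.05, adjusted p = 0.00026) and 0.41 (SE 0.07, adjusted p = 0.00364). Tufm, the elongation factor that brings transfer RNAs to the ribosome, fell in litter 3 by 0.39 (SE 0.06, adjusted p = 0.000955), and Gfm2, which acts in recycling, by 0.39 (SE 0.07, adjusted p = 0.00217). In all, 7 of the 15 fell and 1 rose in litter 3 (against 14.8% and 13.6% of all genes), and 3 fell and 0 rose without the female of that litter (against 6.96% and 5.23% in that fit). Of 17 mitochondrial aminoacyl-tRNA synthetases 3 passed the litter test, and of 9 genes of mitochondrial DNA transcription and maintenance 1 did, Tfam, which packages that DNA. Over these lists the share called is set against the same 32.1% of all genes. In litter 4, 1 translation factor was called higher and 1 lower (against 4.71% and 5.8% of all genes), with a median of 0.03. Of the synthetases 1 was higher and 0 lower there, and of the 6 proteins with other names 2 were higher and 0 lower. Of the assembly genes and of the genes of mitochondrial DNA 0 were called in litter 4.

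Between the sexes, edgeR called 0 of 76 members (against 0.0436% of all genes tested), and DESeq2 also called 0. With litter as a block 0 members were called (against 0.211%). Without the block, 1 of 76 members had an unadjusted p under 0.05, against 306 of 13771 genes, and with it 4 of 76 did, against 1592 of 13771. The log2 differences, male minus female, ran from -0.12 to 0.18 with a median of 0.03, which was -0.0053 without the female of litter 2, -0.0031 without the female of litter 3 and -0.023 without the male of litter 4. The male was above the female in all 4 litters for 11 members (against 10.9% of all genes) and below in all 4 for 5 (against 9.36%). Fibroblast markers also moved with sex: their summed level was 166, 246, 53.0 and 216 CPM in the males and 111, 155, 33.1 and 105 CPM in the females of litters 1 to 4. Of these 8 markers, 0 were called without the litter block and 5 were called higher in males with it, and their part in the members' differences was not tested.

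Mrps31, a small-subunit protein found only in mitochondria, came closest. The males stood at 57.6, 53.2, 49.4 and 54.4 scaled CPM and the females at 48.7, 46.4, 47.3 and 47.2 in litters 1 to 4. Every male lay above every female. The difference was 0.18 (SE 0.07, unadjusted p = 0.0312, adjusted p = 1.00) without the litter block and 0.18 (SE 0.06, adjusted p = 0.3) with it. Mrpl4, which lines the peptide exit tunnel, stood at 63.1, 66.5, 66.8 and 72.9 scaled CPM in the males and at 68.8, 74.2, 71.0 and 78.7 in the females. The male was lower in every litter, with a log2 difference of -0.12 (SE 0.08, adjusted p = 1.00). Mrps9 had 0.12 (SE 0.07) and Mrpl33 0.13 (SE 0.09), with the same adjusted p. In data simulated for the sex comparison, 72% of genes changed by 0.4 on the log2 scale were recovered without the litter block and 71% with it. The members' differences here were all smaller than 0.4. The simulated libraries held no differences between litters, which the real ones do, so the 72% can overstate what the test without the block recovers.

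**Figure D5:**
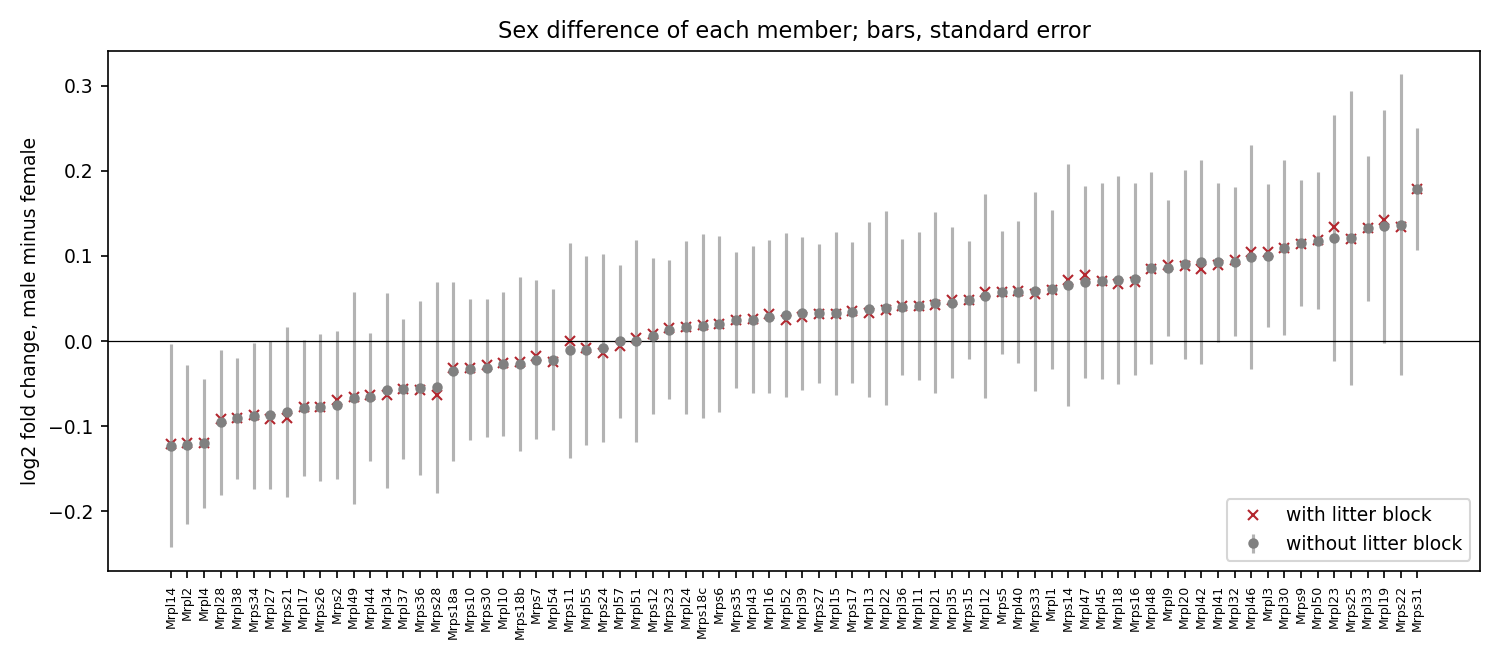
Log2 fold change, male minus female, of each of the 76 members in order, with grey points and bars for the estimate and its standard error without a litter block and red crosses for the estimate with it. All estimates lie between -0.12 and 0.18, and none passed an adjusted p of 0.05.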

How the data were processed

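RNA was measured in cardiomyocytes purified from single hearts. Per the labels' protocols, libraries came from 1 µg of total RNA with a stranded kit for total RNA, although poly(A) RNA is entered as the molecule, and reads were single-end and 100 bases long. STAR 2.7.3a and mm10 are named per the submitters' processing notes. The counting program and its use of strand are not given in the sources used here. The authors deposited raw read counts per gene symbol, with no normalization. The precision of each value is limited by its counts and by the number of libraries.

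Genes were filtered with filterByExpr on sex, scaled with TMM and tested with edgeR 4.0.16 in R 4.3.3 (limma 3.58.1) by quasi-likelihood F tests over all 13771 genes, with Benjamini-Hochberg adjustment and a threshold of 0.05. The sex model held sex alone, and the litter models held litter and sex, with 3 residual degrees of freedom, so that both libraries of a litter estimate the spread. A standard error is the log2 fold change over the root of its F value. The steps were tested on simulated data: in the litter 3 comparison, 60% of genes changed by 0.4 (log2) and 97% of those changed by 1 were recovered. Litter pairs the samples, per the labels. Sex-centred log values of siblings correlated at 0.506, 0.503, 0.696 and 0.367 in litters 1 to 4, against -0.482 to 0.27 between litters.

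Members and gene lists were chosen with earlier results of these data known, although the members follow from the symbol rule and not from a measured value. Members chosen for naming were the 20 with the smallest adjusted p in the litter test and the 5 with the largest range, the 4 largest called changes per litter and direction, the 8 smallest p by sex, the 6 highest and 6 lowest levels, members failing the filter, the Mrps18 paralogs, Mrps30, Mrps36 and the cardiomyopathy genes, and from each list up to 4 called genes. Not all of those chosen are described above. Mrpl47 had been left out of the subunit lists and was added to the large subunit afterwards, and Mrpl39 was named for its promoter after its sequence was seen. Lengths, overlaps and coordinates came from GENCODE M21 on GRCm38, and promoters from RefSeq. Alternatives were DESeq2 1.42.0 and its size factors, library size alone, other filters, counts without genes of mitochondrial DNA, an offset for GC content and length, leaving out libraries or litters, and other transcript lengths.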

Additional observations from a re-analysis of the deposited data

Results flagged for a closer look

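For each tested member chosen for naming, and for the summed level, the 4 males and the 4 females were searched for a library far from the other 3. In these 80 groups about 4 such libraries are due by chance, at 1 in 20, and 2 were found. Mrpl48, a protein of the central protuberance, stood at 62.6 scaled CPM in the male of litter 4, while the other 3 males lay between 48.1 and 48.7. Mrpl50, another large-subunit protein, stood at 48.8 scaled CPM in the male of litter 3, while the other 3 males lay between 56.8 and 58.4.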

How the results depend on the processing

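The fold changes of the members named for a litter or a sex comparison kept their sign under every alternative run, while the median sex difference over members ran from -0.02 to 0.07 when libraries were left out. With litter as a replicate block, 0 members were called by sex, as without it, while over all genes the pairing took the count from 6 to 29. Counts of called members that moved by over 1.5 times were these. With library size alone, 14 passed the litter test (24 with TMM), 1 was higher in litter 3 (0) and 2 were higher in litter 4 (16). DESeq2 gave 7 higher in litter 4 and 0 lower in litter 1 (1), as did no filter on low counts for litter 1. The offset for GC content and length gave 11 higher in litter 1 (6) and 3 higher in litter 4. Leaving out libraries or litters gave 7 to 23 in the litter test, 0 to 14 higher and 0 to 1 lower in litter 1, 0 to 2 lower in litter 2, 0 to 1 higher and 5 to 27 lower in litter 3, and 0 to 15 higher in litter 4. The summed level was 4977, 4653, 4562 and 5128 CPM in litters 1 to 4 without genes of mitochondrial DNA in the totals, and 3930, 3802 and 4440 in litters 2 to 4 with TMM-scaled totals. The median member level, taken in each library and averaged over the 8, was 25.4 CPM per kb of the longest and 31.5 of the principal transcript, against 19.3 of all exons; the principal transcript, the leaving out of whole litters from the litter comparisons and the scaled totals were chosen after seeing the data. With 2 libraries a litter, a fit without 1 of them assumes that the other varies as the rest do.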
